A study of Mus musculus with 16 samples.

Results

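The KDM4 histone demethylase genes Kdm4a, Kdm4b, Kdm4c and Kdm4d were followed in chromatin-associated RNA from mouse embryonic stem cells. They were chosen by gene symbol, through the Ensembl identifiers of the gene count table, and they are 4 of its 56941 genes. All 4 passed the filter on low counts, as did 31057 genes in all.

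KDM4 enzymes remove methyl groups from lysine 9 of histone H3, and KDM4A, KDM4B and KDM4C also from lysine 36, with a JmjC domain that uses iron and alpha-ketoglutarate. Methylated H3K9 is a mark of heterochromatin and is bound by HP1 proteins, and methylated H3K36 lies over transcribed gene bodies. KDM4A, KDM4B and KDM4C also carry PHD and Tudor domains, which KDM4D lacks, and Kdm4d is best known for its expression in testis. In mouse embryonic stem cells Kdm4a, Kdm4b and Kdm4c are expressed, and KDM4B and KDM4C have been linked to self-renewal.

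The cells were E14TG2a, a mouse embryonic stem cell line, grown with LIF at 1000 U per ml, the MEK inhibitor PD0325901 at 1 µM and the GSK3 inhibitor CHIR99021 at 3 µM. Each of the 8 groups ectopically expressed 1 demethylase: KDM4A, KDM4B, KDM6A (UTX, an H3K27 demethylase) or KDM6B (also an H3K27 demethylase), either full-length or without an intrinsically disordered region (IDR), a stretch of protein with no fixed fold. Titles name the deletion del-cIDR and genotypes del-IDR, and the residues removed, the species and tag of the constructs and the vector are not given in the sources used here. Every group carried a construct, so no library stands for cells without one. Each group had 2 libraries, and nothing says that they came from separate cultures, so p-values measure the spread between these libraries, which may be technical.

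Libraries held 32739117 to 54890756 gene reads, and the 8 embryonic stem cell markers examined, Pou5f1, Sox2, Nanog, Esrrb, Zfp42, Klf4, Tfcp2l1 and Tdgf1, had reads in all 16. Levels are in CPM, the share of a gene in the gene reads of its library, with library sizes scaled by TMM, which sets the typical gene equal between libraries. The tables also hold ERCC RNAs, a set of synthetic RNAs of known amount, at 0.578% to 1.53% of gene and ERCC reads together. The labels do not mention them, so it is not known at which step they were added. Scaling to ERCC instead of TMM shifts every gene of a contrast by the same amount. On the log2 scale the shift was −0.65 for IDR-deleted against full-length KDM4A, −0.19 for the same contrast of KDM4B, −0.21 for KDM6A, −0.38 for KDM6B, −0.18 for KDM4A libraries against the rest and 0.74 for KDM4B libraries against the rest. Higher and lower below therefore mean relative to the typical gene, and each result whose direction turns with ERCC scaling is named as such.

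The 4 genes encode closely related catalytic domains, which bears on whether reads can be told apart. A stretch of 60 coding bases inside the JmjC domain is shown because it is the most alike part of the family: capitals mark the 47 bases that are identical in all 4. It covers coding bases 559 to 618 of Kdm4a, 562 to 621 of Kdm4b, 565 to 624 of Kdm4c and 562 to 621 of Kdm4d in the longest coding sequences of GENCODE M21 (GRCm38), read 5′ to 3′.
Kdm4a: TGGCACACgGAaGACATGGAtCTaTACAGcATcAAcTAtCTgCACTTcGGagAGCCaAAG
Kdm4b: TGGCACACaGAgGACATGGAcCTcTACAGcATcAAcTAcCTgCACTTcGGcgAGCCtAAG
Kdm4c: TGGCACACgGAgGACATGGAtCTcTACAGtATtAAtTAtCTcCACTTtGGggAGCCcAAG
Kdm4d: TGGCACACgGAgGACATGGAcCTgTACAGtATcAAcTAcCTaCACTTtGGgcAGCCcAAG
Even here the capitals are broken up by differing bases every few positions. Over whole coding sequences the 6 pairs were 58.9% to 64.7% identical, and the longest run shared by any pair was 26 bases, between Kdm4c and Kdm4d. Kdm4d is the exception to easy separation, because its unprocessed pseudogene Kdm4dl (chromosome 9, 14362132 to 14363318 on GRCm39) shares a run of 167 identical bases with it. Kdm4dl was looked up after values were seen. It had 64 to 197 reads per library, more than Kdm4d itself, and since reads that fit several places were discarded, the level of Kdm4d is uncertain.

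Per unit of exon length, Kdm4a and Kdm4c were the most abundant members, Kdm4b stood lower and Kdm4d was close to absent. The mean over 16 libraries was 38.3 for Kdm4a in CPM per kilobase of exon (RPKM), 36.8 for Kdm4c, 18.4 for Kdm4b and 0.228 for Kdm4d. Kdm4a (ENSMUSG00000033326) lies on the minus strand of chromosome 4 from 117994154 to 118037240 on GRCm39, with 24 merged exons. Kdm4c (ENSMUSG00000028397) lies on the plus strand of the same chromosome from 74160734 to 74324097, with 26. Kdm4b (ENSMUSG00000024201) lies on the plus strand of chromosome 17 from 56633062 to 56709870, with 25, and Kdm4d (ENSMUSG00000053914) on the minus strand of chromosome 9 from 14373844 to 14411778, with 3. The counting ignored strand. Only 2 other genes of the table overlap a member: the snoRNA gene Gm23382 inside Kdm4a, with 14 to 52 reads per library, and the antisense gene A230083N12Rik inside Kdm4c, with 2 to 28.

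Kdm4a was higher with IDR-deleted than with full-length KDM4A. It had 217 and 206 CPM in the libraries with full-length KDM4A and 300.4 and 292 CPM in those with the IDR-deleted form, the highest levels of the series. With full-length KDM4B it had 181 and 175 CPM, and with IDR-deleted KDM4B 211 and 199 CPM. The libraries of full-length KDM6A had 193 and 189.9 CPM and those of IDR-deleted KDM6A 177 and 165 CPM. With KDM6B the values were 253 and 272 CPM for the full-length form and 260.1 and 250.3 CPM for the IDR-deleted one. From high to low the group means ran from 296 ± 6.24 CPM (SD, n = 2) in IDR-deleted KDM4A through 262 ± 13.4 and 255 ± 6.96 in the KDM6B groups to 171 ± 8.73 in IDR-deleted KDM6A. Neighbours in this order overlapped between both KDM6B groups, between full-length KDM4A and IDR-deleted KDM4B, and between full-length KDM4B and IDR-deleted KDM6A.

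The KDM4A libraries as a whole were not set apart by Kdm4a reads. They averaged 254 ± 49.3 CPM (SD, n = 4; 205.6 to 300.4) against 210.5 ± 37.9 CPM (SD, n = 12; 165 to 272, median 196) in the rest, and the ranges overlapped. The model fitted over all libraries put the 4 KDM4A libraries 0.27 ± 0.02 (SE, log2) above the other groups (edgeR, adjusted p = 2.43e-11), a comparison in which 34.2% of all tested genes passed the threshold of adjusted p under 0.05 (18.9% higher and 15.3% lower) and 2 of the 4 members did, both higher. The other was Kdm4c, at 0.07 ± 0.02 (adjusted p = 0.0252), which did not pass without 13 of the 16 libraries in turn (adjusted p = 0.0508 to 0.208) and was −0.11 with ERCC scaling. With full-length forms alone, Kdm4a differed by 0.02 ± 0.04 between KDM4A and the other 3 constructs (adjusted p = 0.732). In that comparison 15.3% of all genes (8.92% higher and 6.36% lower) and none of the 4 members passed with edgeR, none had an unadjusted p under 0.05, and DESeq2 called none. Without the second library of full-length KDM4B, Kdm4b was at −0.13 in it (adjusted p = 0.0499). Kdm4a was lower in the KDM4B libraries than in the rest, by −0.25 ± 0.03 (adjusted p = 1.58e-10), but ERCC scaling turned this to 0.49. Among full-length forms it was lower with KDM4B than with the other 3, by −0.30 ± 0.04 (adjusted p = 7.73e-09), 1 of 4 members where 43.5% of all genes passed (21.8% higher and 21.8% lower), and 0.32 with ERCC scaling.

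**Figure D1:**
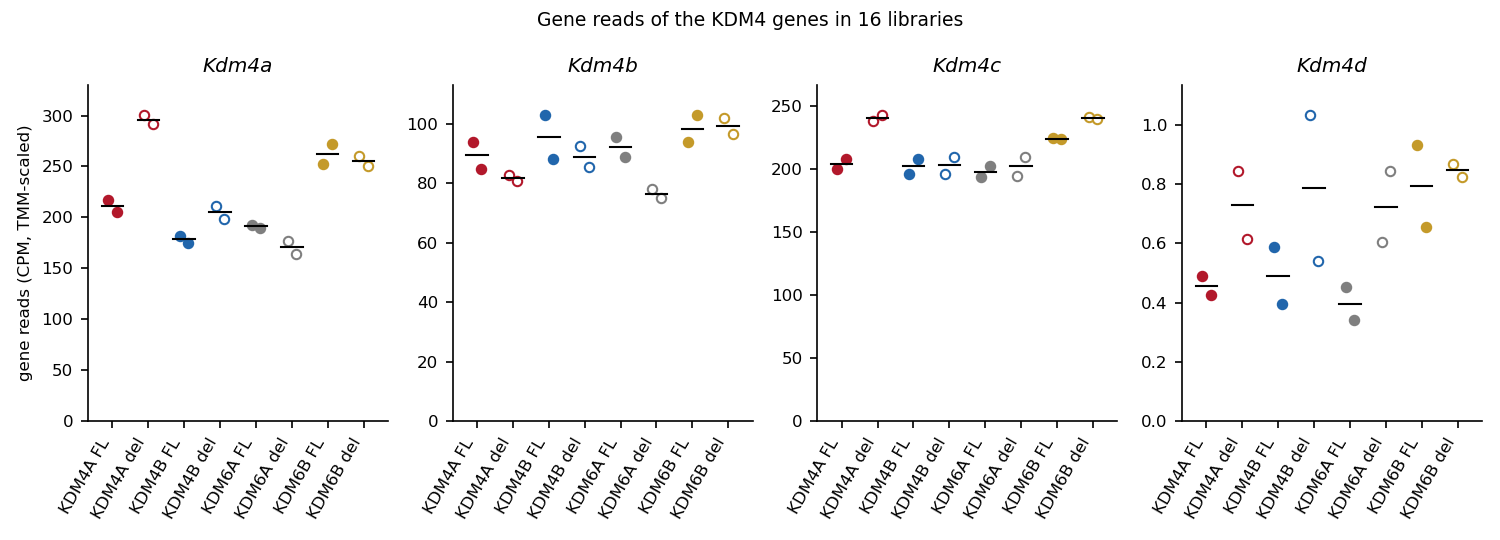
Gene reads of the 4 KDM4 genes in CPM (TMM-scaled, linear axes from 0) for 8 groups of 2 libraries; filled points are full-length (FL), open points IDR-deleted (del) constructs, and bars are means of 2. Kdm4a is highest with IDR-deleted KDM4A (300.4 and 292 CPM). Kdm4b is lowest with IDR-deleted KDM6A (77.9 and 74.9 CPM), and its values in the KDM4B libraries lie among the others.

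Kdm4b, whose product was the other KDM4 construct, did not stand out in the libraries that carried it. It had 103 and 88.2 CPM with full-length KDM4B and 92.4 and 85.4 CPM with IDR-deleted KDM4B. With KDM4A it had 94.0 and 84.9 CPM (full-length) and 82.7 and 80.6 CPM (IDR-deleted), with KDM6A 95.5 and 88.6 CPM and then 77.9 and 74.9 CPM, and with KDM6B 93.8 and 103 CPM and then 102 and 96.6 CPM. The 4 KDM4B libraries averaged 92.2 ± 7.59 CPM (SD) against 89.5 ± 9.29 CPM in the other 12, a 1.03-fold difference inside the spread. The fitted difference was 0.05 ± 0.04 (log2, adjusted p = 0.309), where 47.8% of all genes (24.6% higher and 23.2% lower) and 2 of 4 members (Kdm4a and Kdm4c, both lower) passed. With ERCC scaling the difference of Kdm4b became 0.78 and its level 1.66-fold, in a contrast where that scaling raised all genes by 0.74. Without the second library of full-length KDM4B the TMM value was 0.10 (adjusted p = 0.025).

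The other 2 constructs, whose genes are not KDM4 genes, were compared in the same way. Kdm6a averaged 429 ± 11.3 CPM (SD, n = 4) in the KDM6A libraries and 117 ± 22.4 CPM in the other 12, without overlap. Kdm6b averaged 88.2 ± 8.20 CPM (SD, n = 4; 78.1 to 96.4) in the KDM6B libraries and 74.2 ± 3.97 CPM (n = 12; 69.1 to 81.4) in the rest, and these ranges overlapped, as they did for Kdm4a in KDM4A libraries and for Kdm4b in KDM4B libraries. As the labels do not give the species or codon use of the constructs, whether construct RNA could have been counted under the mouse genes was not tested.

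Kdm4c had 200.3 and 208 CPM with full-length and 238 and 243 CPM with IDR-deleted KDM4A. It had 196 and 208 CPM with full-length KDM4B and 196 and 209.5 CPM with IDR-deleted KDM4B, and 193 and 203 CPM and then 195 and 209 CPM in the KDM6A groups. The KDM6B groups had 225 and 224 CPM (full-length) and 242 and 239 CPM (IDR-deleted). The IDR-deleted KDM4A pair and both KDM6B pairs thus lay above the other 10 libraries, and the whole range was only 1.26-fold. Kdm4d had 12 to 49 reads per library, or 0.343 to 1.03 CPM, and none of its contrasts in gene reads passed the test.

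Removing the IDR from KDM4A was accompanied by more Kdm4a and more Kdm4c relative to the typical gene. Kdm4a rose by 0.49 ± 0.04 (SE, log2), or 1.40-fold (edgeR, adjusted p = 3.48e-12), and Kdm4c rose by 0.24 ± 0.04, or 1.18-fold (adjusted p = 1.17e-05). Kdm4b differed by −0.13 ± 0.07 (adjusted p = 0.102) and Kdm4d by 0.68 ± 0.45 (adjusted p = 0.208). These were 2 of 4 members higher and none lower, where 50.5% of all genes passed, 24.6% higher and 25.9% lower. With ERCC scaling the directions turned: Kdm4a became −0.17 (adjusted p = 0.0144) and Kdm4c −0.42 (adjusted p = 1.06e-08), both less negative than the shift of −0.65. Primitive endoderm markers (5 genes) summed to 18.4 CPM with full-length and 34.8 CPM with IDR-deleted KDM4A, and 5 fibroblast markers to 16.1 and 31.0 CPM. Both sums were highest in the IDR-deleted KDM4A group. Over all libraries they ran from 13.4 to 34.9 CPM and from 8.75 to 31.8 CPM, with both upper ends in an IDR-deleted KDM4A library. Of the fibroblast markers, Col3a1 was at 0 in 9 libraries. Sums of 3 neural markers went from 17.3 to 22.3 CPM, of 3 trophectoderm markers from 2.91 to 3.29 CPM and of 8 stem cell markers from 2361 to 2240 CPM. The part of all these markers in the result was not tested.

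Removing the IDR from KDM4B was accompanied by a smaller rise of Kdm4a alone. Kdm4a was 0.20 ± 0.04 higher (adjusted p = 0.000322), 1 of 4 members, where 36.2% of all genes passed, 18.6% higher and 17.6% lower. Kdm4b itself differed by −0.10 ± 0.07 (adjusted p = 0.239) and Kdm4c by 0.00 ± 0.04 (adjusted p = 0.951). With ERCC scaling the difference of Kdm4a was 0.01 (adjusted p = 0.901). Between full-length and IDR-deleted KDM4B the summed primitive endoderm markers went from 13.5 to 26.5 CPM, the fibroblast markers from 10.7 to 16.4 CPM and 3 trophectoderm markers from 2.32 to 3.88 CPM. The sum of 3 neural markers went the other way, from 23.3 to 16.6 CPM. The 8 stem cell markers went from 2235 to 1826 CPM, the lowest group mean of the series. The part of these markers in the result was not tested. The KDM4A deletion contrast exceeded the KDM4B one by 0.29 ± 0.06 for Kdm4a (adjusted p = 0.000334) and by 0.23 ± 0.06 for Kdm4c (adjusted p = 0.00257), 2 of 4 members where 31.1% of all genes passed, 15.4% higher and 15.6% lower. ERCC scaling turned both, to −0.18 and −0.23. Without the second library of full-length KDM4B the value for Kdm4c was 0.16 (adjusted p = 0.0688).

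The KDM6 constructs served as the other pair of deletions. Without the IDR of KDM6A, Kdm4a fell by 0.17 on the log2 scale (SE 0.04, adjusted p = 0.00591) and Kdm4b fell by 0.27 (SE 0.07, adjusted p = 0.0045), 2 of 4 members where 17% of all genes passed, 8.3% higher and 8.65% lower. Neither passed without 1 of 2 libraries: without the second IDR-deleted KDM6A library Kdm4a was at −0.11 (adjusted p = 0.166) and Kdm4b at −0.24 (adjusted p = 0.0608), and without the first full-length one at −0.15 (adjusted p = 0.0623) and −0.22 (adjusted p = 0.0739). Without the IDR of KDM6B none of the 4 members passed with edgeR or DESeq2, 1 (Kdm4c, 0.10 ± 0.04, adjusted p = 0.0869) had an unadjusted p under 0.05, and 20.6% of all genes passed (9.89% higher and 10.7% lower). Between the 8 KDM4 and the 8 KDM6 libraries 30% of all genes passed (14.7% higher and 15.3% lower), none of the 4 members did with edgeR or DESeq2, and none had an unadjusted p under 0.05. With ERCC scaling 3 members were higher in the KDM4 libraries.

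**Figure D2:**
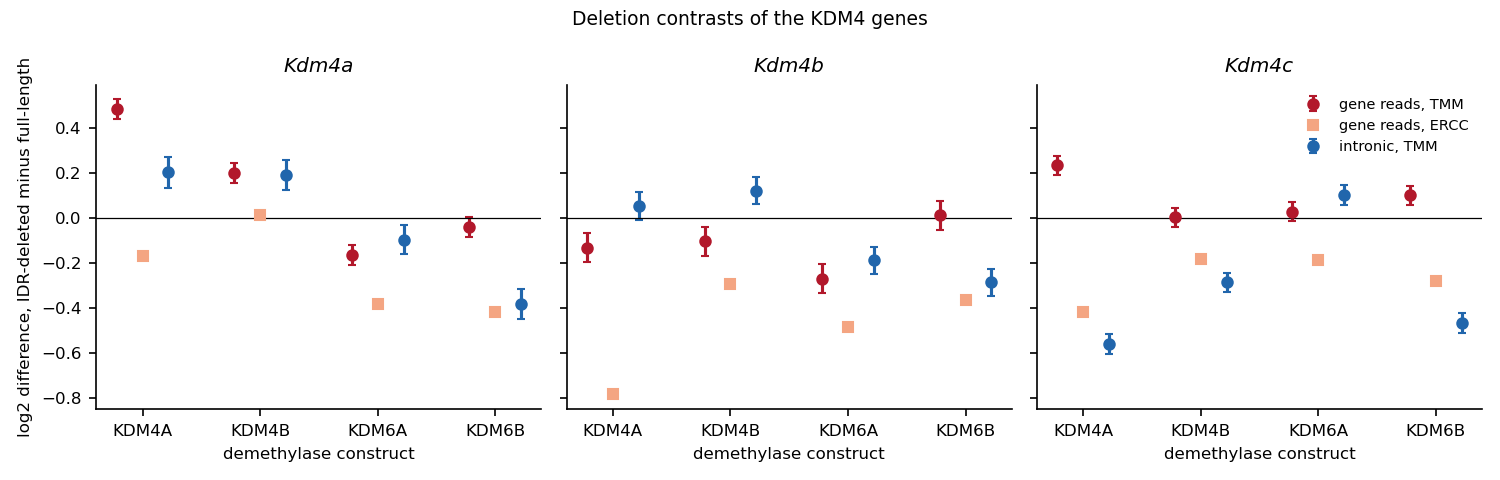
Log2 difference, IDR-deleted minus full-length, for Kdm4a, Kdm4b and Kdm4c in each of the 4 deletion contrasts: red circles are TMM-scaled gene reads, orange squares ERCC-scaled gene reads (drawn without error), blue circles intronic repeat reads, and bars are SE. For IDR-deleted KDM4A the gene reads of Kdm4a move from 0.49 to −0.17 when ERCC replaces TMM, and the intronic reads of Kdm4c lie at −0.56.

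The repeat table gives a second view of the same genes. Introns are full of repeat copies, and RNA bound to chromatin includes unspliced transcripts, so reads in repeat copies that lie in an intron, at least 200 bases from any exon and outside other genes, were taken as an intronic level for each gene. Strand was ignored. These reads therefore do not separate unspliced RNA of the gene from RNA that started in a repeat or came from the other strand. There were 74 such copies in Kdm4a, 99 in Kdm4b, 383 in Kdm4c and 44 in Kdm4d, together 6748, 10736, 67640 and 19363 bases. They were scaled with the same library sizes as gene reads. Intronic reads were 22.7% to 56.4% of gene reads per library, lowest in the KDM6B libraries and highest in the KDM6A libraries.

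Kdm4c held the most intronic reads and varied most. It had 269 and 272 intronic CPM with full-length KDM4A and 177 and 189.7 with IDR-deleted KDM4A, and 323 and 338 with full-length KDM4B and 263 and 279 with IDR-deleted KDM4B. The KDM6A groups had 322 and 314 and then 324 and 358, and the KDM6B groups 174 and 163 and then 119 and 126. The range was 3.02-fold, against 1.26-fold in gene reads of Kdm4c, and the 3 groups highest in gene reads were the 3 lowest in intronic reads. From high to low the groups followed the library-wide share of intronic reads except that full-length KDM4B and full-length KDM6A changed places, and the part of that share in the levels of Kdm4c was not tested. Kdm4c fell by 0.56 (log2, SE 0.04, adjusted p = 5.26e-16) with IDR-deleted KDM4A, by 0.29 (SE 0.04, adjusted p = 2.38e-07) with IDR-deleted KDM4B and by 0.47 (SE 0.04, adjusted p = 6.17e-13) with IDR-deleted KDM6B. The KDM4A contrast was 0.27 below that of KDM4B (value −0.27 ± 0.06, adjusted p = 0.000296), 1 of 4 members where 34.2% of all genes passed, 9.86% higher and 24.3% lower, and where the median over all genes was −0.18.

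**Figure D3:**
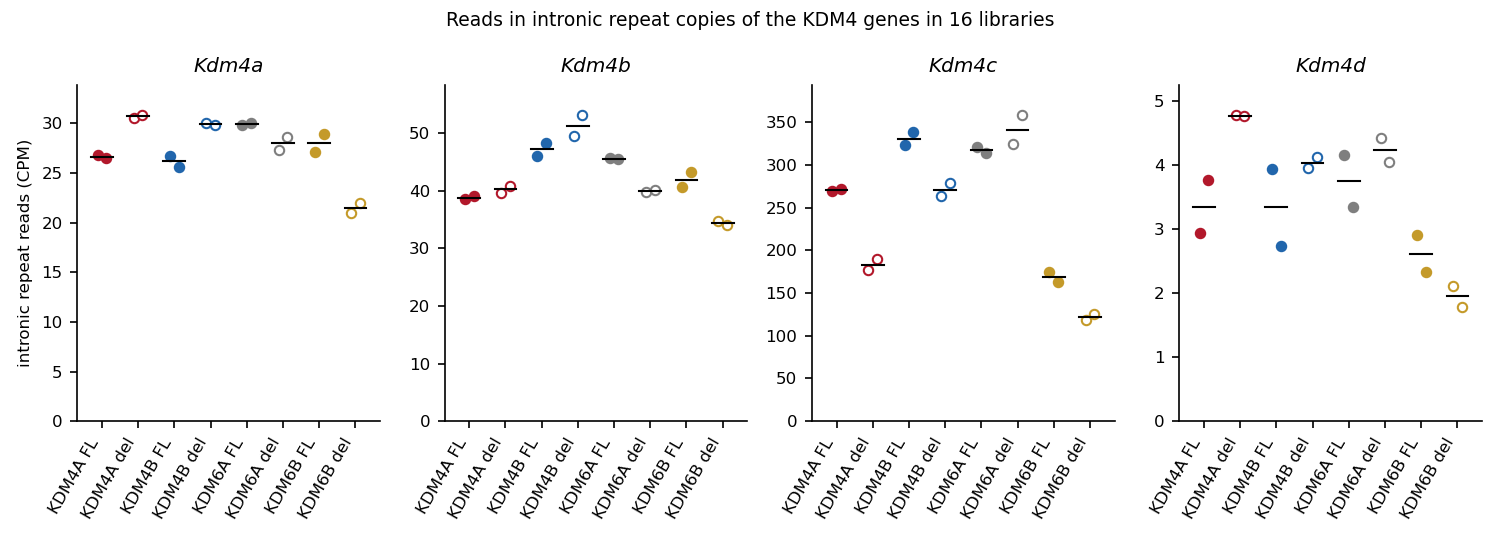
Reads in intronic repeat copies of the 4 KDM4 genes in CPM (linear axes from 0), drawn as for gene reads: filled full-length, open IDR-deleted, bars means of 2 libraries. Kdm4c runs from 119 CPM with IDR-deleted KDM6B to 358 CPM with IDR-deleted KDM6A, and the 4 KDM4B libraries hold the highest values of Kdm4b.

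Intronic reads of Kdm4b were higher in the libraries that carried KDM4B. These had 46.1 and 48.3 intronic CPM (full-length) and 49.5 and 53.1 (IDR-deleted), and the other 12 libraries 34.0 to 45.6 with a median of 40.0. The groups did not overlap, at 49.2 ± 2.96 (SD, n = 4) against 40.1 ± 3.57 (n = 12), or 1.23-fold, in a comparison where 52.7% of all genes with intronic copies passed, 47.9% higher and 4.78% lower. The fitted difference was 0.30 ± 0.03 (adjusted p = 1.14e-10), beside a median of 0.23 over all 17204 genes tested. Scaled to intronic reads alone, so that the typical gene's introns are equal, it was 0.08 (adjusted p = 0.0493). Copies of the ERVK repeat family gave 15.2% of the intronic reads of Kdm4b, and a single 537-base copy among them 14.6%. Group means of this family were 8.81 and 8.52 CPM with full-length and IDR-deleted KDM4B, and 5.00 to 6.55 CPM in the other groups. The part of this copy in the difference was not tested. Kdm4c was also higher in the KDM4B libraries, by 0.45 ± 0.02 (adjusted p = 5.98e-22), and 2 of 4 members passed. With full-length forms alone Kdm4b was 0.17 ± 0.05 higher with KDM4B (adjusted p = 0.00403) and Kdm4c 0.44 ± 0.03 (adjusted p = 9.79e-16), 2 of 4 members where 46.8% of all genes passed, 36.7% higher and 10.1% lower. The value for Kdm4b did not pass without the second library of full-length KDM4B (0.12, adjusted p = 0.158), and scaled to intronic reads alone it was −0.016 (adjusted p = 0.815).

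In the libraries that carried KDM4A the fitted intronic level was lower for Kdm4b and Kdm4c and higher for Kdm4d. Against the rest Kdm4b stood at −0.12 ± 0.04 (adjusted p = 0.00483), Kdm4c at −0.12 ± 0.03 (adjusted p = 0.000121) and Kdm4d at 0.32 ± 0.11 (adjusted p = 0.0171), with Kdm4a at 0.08 ± 0.04 (adjusted p = 0.106). For Kdm4c the full-length and IDR-deleted pairs were unlike: the IDR-deleted pair had 177 and 189.7 CPM and the full-length pair 269 and 272 CPM, against a mean of 259 CPM in the rest, and among full-length forms Kdm4c was at 0.05 ± 0.04 (adjusted p = 0.325). The pairs were also unlike for Kdm4d, at 4.78 and 4.76 CPM with the IDR-deleted form and 2.93 and 3.76 CPM with the full-length form. The rest had a mean of 3.32 CPM and a median of 3.64 CPM for Kdm4d. In KDM4A libraries against the rest 2 members were thus lower and 1 higher where 37.3% of all genes passed, 21.8% lower and 15.5% higher. Kdm4d did not pass without 4 of the libraries in turn, among them the second of full-length KDM4A (0.22, adjusted p = 0.226), nor with ERCC scaling (0.13, adjusted p = 0.338). Among full-length forms 1 of 4 members passed, Kdm4b, which was lower with KDM4A than with the other 3, at −0.21 ± 0.05 (adjusted p = 0.00125). There 21.5% of all genes passed, 14% higher and 7.48% lower.

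Intronic reads of Kdm4a spanned 20.9 to 30.8 CPM and moved with the deletions in a different way from those of Kdm4c. They rose by 0.20 ± 0.07 with IDR-deleted KDM4A (adjusted p = 0.00843; 26.8 and 26.5 CPM against 30.6 and 30.8), while the median over all genes in that contrast was −0.24. In the same contrast Kdm4d rose by 0.50 ± 0.19 (adjusted p = 0.0206) and Kdm4b differed by 0.05 ± 0.06 (adjusted p = 0.477), so 2 members rose and 1 fell where 55% of all genes passed, 17.4% higher and 37.6% lower. ERCC scaling turned Kdm4a to −0.45 and Kdm4d to −0.15. Without the first IDR-deleted or the first full-length KDM4A library the rise of Kdm4a was no longer past the threshold (adjusted p = 0.0529 and 0.0514). With IDR-deleted KDM4B the intronic reads of Kdm4a were 0.19 ± 0.07 higher (adjusted p = 0.0154, and 0.0603 to 0.0918 without 3 of the KDM4B libraries in turn) and 0.0055 with ERCC scaling (adjusted p = 0.968), 1 member higher and 1 lower where 40.8% of all genes passed, 16.3% higher and 24.5% lower.

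Intronic reads of 3 members were lower with IDR-deleted than with full-length KDM6B. Besides Kdm4c, Kdm4a fell by 0.38 (SE 0.07, adjusted p = 2.86e-06) and Kdm4b fell by 0.29 (SE 0.06, adjusted p = 1e-04), where 40.9% of all genes passed, 4.95% higher and 36% lower. The median over all genes was −0.24. With scaling to intronic reads alone Kdm4a was at −0.14 (adjusted p = 0.0744) and Kdm4b at −0.05 (adjusted p = 0.588), whereas Kdm4c stayed past the threshold at −0.23. With IDR-deleted KDM6A 1 member passed, Kdm4b, at −0.19 ± 0.06 (adjusted p = 0.0226), where 18.4% of all genes did (10.7% higher and 7.71% lower), and it was not past the threshold without any 1 of the 4 KDM6A libraries (adjusted p = 0.102 to 0.127).

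The fitted intronic level of all 4 members was higher over the KDM4 than over the KDM6 groups, by 0.09 ± 0.03 for Kdm4a (adjusted p = 0.0288), 0.13 ± 0.03 for Kdm4b (adjusted p = 0.000321), 0.25 ± 0.02 for Kdm4c (adjusted p = 6.27e-14) and 0.35 ± 0.10 for Kdm4d (adjusted p = 0.00199). The KDM6 groups were not alike. IDR-deleted KDM6B was the lowest of the 8 groups for every member, with group means of 21.4 CPM for Kdm4a, 34.4 for Kdm4b, 122 for Kdm4c and 1.95 for Kdm4d. The KDM6A groups lay within or above the range of the KDM4 groups: Kdm4a at 29.9 and 28.0 against 26.2 to 30.7, and Kdm4c at 318 and 341 against 183 to 331. The same held for Kdm4b, at 45.5 and 40.0 against 38.8 to 51.3, and for Kdm4d, at 3.75 and 4.24 against 3.33 to 4.77. In this comparison 41.4% of all genes passed, 38.5% higher and 2.91% lower. Scaled to intronic reads alone, Kdm4a became −0.048 (adjusted p = 0.269) and Kdm4b −0.0048 (adjusted p = 0.929).

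The families behind these reads differed by gene. In Kdm4c, 82 L1 copies (LINE elements, 33.7 kb together) gave 36.1% of the intronic reads and ranged from 37.2 to 137 CPM over libraries. MaLR copies gave 15.6%, B2 copies 12.8%, simple repeats 12.5% and ERVK copies the next share. Each of these 5 kinds was lower with IDR-deleted than with full-length KDM4A, with log2 differences of group means between −0.66 for MaLR and −0.29 for simple repeats. All 5 were also lower with IDR-deleted KDM4B (−0.35 for L1 to −0.17 for simple repeats) and with IDR-deleted KDM6B (−0.70 for ERVK to −0.34 for simple repeats). With IDR-deleted KDM6A the L1 copies went from 117 to 128 CPM and the MaLR copies from 51.6 to 50.6 CPM. These differences were not tested. In Kdm4a the Alu (B1) copies gave 41.6%, in Kdm4b the B4 copies 28.3%, and in Kdm4d 4 ERVL copies gave the largest share of any family. Single copies weighed little in Kdm4c, where the largest held 3.77%. In Kdm4b a 537-base ERVK copy on chromosome 17 from 56664843 to 56665379 held 14.6%. Single copies weighed most in Kdm4d, where a 3945-base ERVL copy held 28.7% and a 1168-base MaLR copy 19.1%.

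The ratio of gene reads to intronic repeat reads within a library does not depend on library scaling. It was taken on the log2 scale, minus the median over 11866 genes in that library, and tested with limma. With IDR-deleted KDM4A the ratio of Kdm4c rose by 0.54 ± 0.07, a 1.46-fold change with a 95% interval of 1.32 to 1.61 (adjusted p = 0.000331). The ratio of Kdm4b fell by 0.44 (SE 0.09, adjusted p = 0.00521), and that of Kdm4a differed by 0.03 ± 0.07 (adjusted p = 0.809). Thus 1 member rose and 1 fell where 29% of all genes passed. Without the centring Kdm4a was at 0.28 (adjusted p = 0.0218) and Kdm4b at −0.19 (adjusted p = 0.194).

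With IDR-deleted KDM4B none of the 4 ratios passed with limma, where 4.44% of all genes did; 2 had an unadjusted p under 0.05, Kdm4b at −0.28 ± 0.09 (adjusted p = 0.111) and Kdm4c at 0.23 ± 0.07 (adjusted p = 0.0843). In the test of the KDM4A against the KDM4B deletion effect on these ratios none of the 4 members passed. For Kdm4c the difference was 0.31 ± 0.09 (adjusted p = 0.0709), the only member with an unadjusted p under 0.05, and 7.15% of all genes passed. In KDM4B libraries against the rest the ratio of Kdm4c was lower by −0.27 ± 0.04 (adjusted p = 0.00138), 1 of 4 members where 20.9% of all genes passed. Kdm4b's own ratio in that comparison was 0.03 ± 0.05 (adjusted p = 0.694). In KDM4A libraries against the rest none of the 4 members passed, 3 had an unadjusted p under 0.05, and 12.5% of all genes passed. Kdm4a's own ratio there was 1.95 to 1.99 against 1.75 to 1.96, a difference of 0.11 ± 0.04 (adjusted p = 0.0999). Among full-length forms the ratio of Kdm4c was lower with KDM4B than with the other 3, at −0.25 ± 0.05 (adjusted p = 0.0153), 1 of 4 members where 11.3% of all genes passed, but not without either library of full-length KDM4B (adjusted p = 0.121 and 0.0817). By comparison, the ratio of Kdm6a, added after values were seen, was 0.21 to 0.54 in the KDM6A libraries and −1.09 to −0.25 in the rest, while that of Kdm6b was 3.67 to 4.17 in the KDM6B libraries and 3.36 to 4.58 in the rest. Without the centring the ranges of Kdm6a overlapped, at 0.99 to 1.41 in the KDM6A libraries and −0.21 to 1.42 in the rest.

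**Figure D4:**
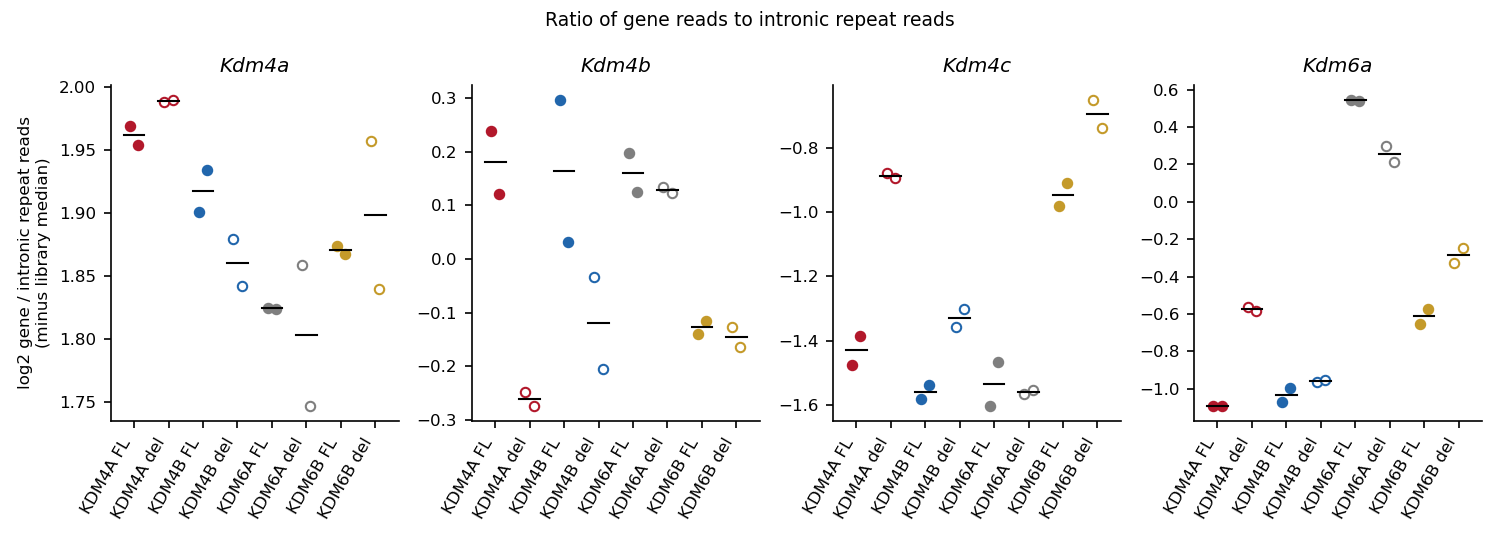
Log2 ratio of gene reads to intronic repeat reads minus the library median, for Kdm4a, Kdm4b, Kdm4c and, for comparison, Kdm6a, in 8 groups of 2 libraries (filled full-length, open IDR-deleted, bars means; the axes do not start at 0 and differ). Kdm6a separates the KDM6A libraries (0.21 to 0.54) from the rest, whereas Kdm4b in KDM4B libraries lies among the others.

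Where along the gene the intronic reads fell was compared by the ratio of reads in copies on the 5′ side of the midpoint of the gene span to those on the 3′ side, a measure added after values were seen and tested with limma over 9285 genes. In Kdm4a the 40 copies of the 5′ side went from 15.8 ± 0.852 CPM (SD, n = 2) with full-length KDM4A to 22.6 ± 0.726 with the IDR-deleted form, and the 34 of the 3′ side from 10.8 ± 0.703 to 8.06 ± 0.900. The log2 ratio was 0.67 and 0.43 in the first pair and 1.64 and 1.34 in the second. It rose by 0.94 ± 0.13 (adjusted p = 0.00048), where 35.4% of all genes passed and the median of all genes was 0.20. The ratio also averaged 1.11 and 1.22 in the KDM6B groups and 0.34 to 0.62 in the other 5, so the high groups were the ones whose Kdm4a gene reads were highest. Kdm4b rose by 0.60 ± 0.16 (adjusted p = 0.0153), with 1.90 and 1.84 against 2.20 and 2.74, but stood at 0.33 (adjusted p = 0.105) without the second IDR-deleted KDM4A library. Kdm4c fell by 0.25 (SE 0.08, adjusted p = 0.0274), and did not pass without any 1 of the 4 KDM4A libraries (adjusted p = 0.0638 to 0.112). Kdm4d had too few reads for the test.

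For IDR-deleted KDM4B the ratio of Kdm4a differed by 0.18 ± 0.13 (adjusted p = 0.51). The KDM4A contrast exceeded it by 0.76 ± 0.19 (adjusted p = 0.0289), where 11.8% of all genes passed; with the median of each library subtracted it was 0.60 (adjusted p = 0.0829), and it missed the threshold without 6 of the 8 KDM4 libraries in turn (adjusted p = 0.0509 to 0.0943).

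**Figure D5:**
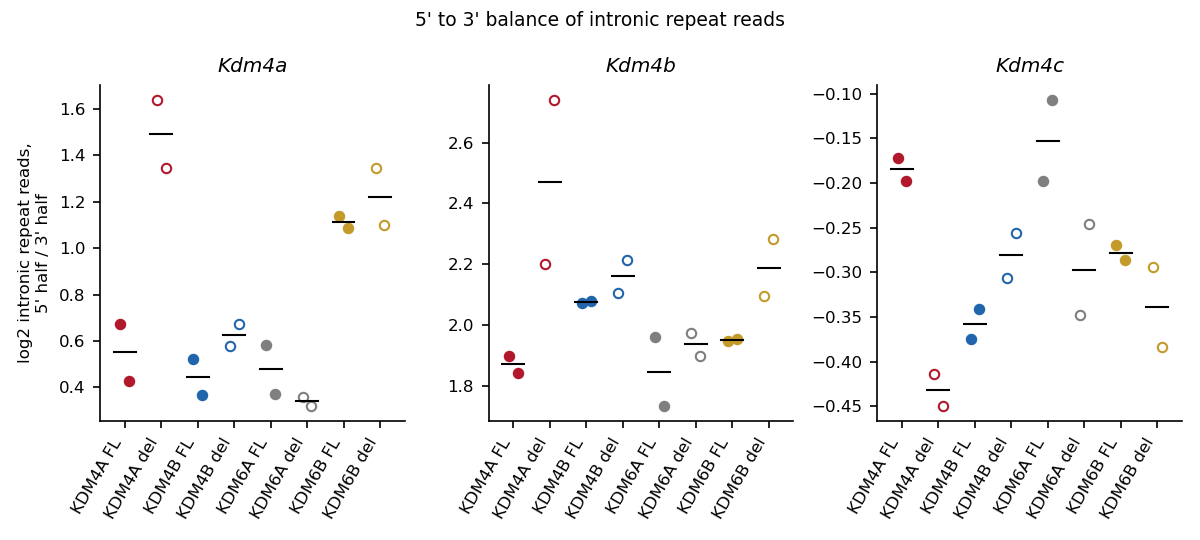
Log2 ratio of intronic repeat reads on the 5′ side to those on the 3′ side of the gene midpoint in Kdm4a, Kdm4b and Kdm4c in 8 groups of 2 libraries (filled full-length, open IDR-deleted, bars means; the axes do not start at 0 and differ). Kdm4a is at 1.34 to 1.64 with IDR-deleted KDM4A and at 0.43 and 0.67 with full-length KDM4A.

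The enzymes that share the marks of KDM4 moved in both directions. The list holds 24 genes: other H3K9 and H3K36 demethylases, the methyltransferases of both residues and the HP1 readers. With IDR-deleted KDM4A 9 rose, 10 fell and 5 did not pass, with a median of −0.04 beside −0.05 over all genes, and the 50.5% background applies. Phf2, a demethylase of H3K9, rose by 0.69 ± 0.07 (34.7 and 34.2 CPM to 56.9 and 54.5). Ehmt2, which encodes the H3K9 methyltransferase G9a, rose by 0.53 ± 0.06, and Setd2, which trimethylates H3K36, by 0.44 ± 0.03. Suv39h1, which trimethylates H3K9 in heterochromatin, fell by 1.14 (SE 0.07, 42.9 and 41.3 CPM to 18.4 and 19.7). Nsd1, which dimethylates H3K36, fell by 0.89 (SE 0.03, 1395 and 1383 CPM to 754 and 749.5), and Kdm2a, an H3K36 demethylase, by 0.61 (SE 0.04). With ERCC scaling Ehmt2 and Setd2 turned to −0.12 and −0.22. Any other rise smaller than 0.65 turns as well, because the shift of this contrast was −0.65. Among these were the HP1 genes Cbx1 (group means of 129 and 172 CPM) and Cbx3 (75.5 and 91.4 CPM). The rise of Phf2, at 0.69, was close in size to the shift of −0.65, so little of it is left with ERCC scaling. The counts of rises in this contrast, here and below, therefore hold for TMM scaling only.

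Of the 6 H3K9 demethylases outside KDM4, 4 rose and 2 fell with IDR-deleted KDM4A. Of the 6 H3K9 methyltransferases 1 rose, 4 fell and 1 did not pass, of the 7 H3K36 methyltransferases 2 rose, 2 fell and 3 did not pass, of the 2 H3K36 demethylases 1 fell and 1 did not pass, and of the 3 HP1 genes 2 rose and 1 fell. With IDR-deleted KDM4B 3 of the 24 rose, 14 fell and 7 did not pass, with a median of −0.16 beside 0.01 over all genes, where 36.2% of all genes passed, 18.6% higher and 17.6% lower. Kdm3a, an H3K9 demethylase, fell by 0.68 (SE 0.03, 607 and 604 CPM to 379.9 and 373), Cbx5, which encodes HP1 alpha, by 0.52 (SE 0.04) and Nsd1 by 0.41 (SE 0.03). Phf2 rose by 0.34 ± 0.07, Setd2 by 0.16 ± 0.03 and Cbx1, which encodes HP1 beta, by 0.16 ± 0.05. The rise of Cbx1 did not pass without the second library of full-length KDM4B (adjusted p = 0.0592). Setd2 and Cbx1 turned to −0.029 and −0.024 with ERCC scaling.

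The genes with levels most like those of a member were found by Pearson's r of log2 CPM over the 16 libraries among 14183 named genes. The libraries share their scaling and group structure, so r is a description. Kdm4a was most like Phlpp2, Prmt7 and Vars2 (each r = 0.985), for example with Phlpp2 at 58.0 and 58.1 CPM with full-length and 91.9 and 90.4 CPM with IDR-deleted KDM4A. Kdm4c was most like Zfp51 (0.974), Lbr (0.955) and Pip4k2c (0.955), Kdm4b like Dtx4 (0.863), Sfxn3 (0.856) and Tbc1d24 (0.839), and Kdm4d, at few reads, like Ddit4l (0.851), Ahr (0.819) and Sbk1 (0.809). Within the family, Kdm4a and Kdm4c had r = 0.830, which ranked Kdm4c 3350th among the genes most like Kdm4a and Kdm4a 2042nd among those most like Kdm4c, and Kdm4b had 0.252 with Kdm4a and 0.057 with Kdm4c.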

How the data were processed

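Chromatin-associated RNA of 16 libraries was measured by sequencing after rRNA depletion with a stranded kit, per the labels' protocols. Reads were aligned with HISAT2 to GRCm39 plus spike-ins, and the authors deposited the resulting raw counts per gene and per repeat copy, obtained with featureCounts 2.0.3 (minimum mapping quality 30) per the file headers. Both mates contributed a count, strand was ignored and reads with several matches were left out, so counts are not independent molecules. The submitters' processing notes also name SAMtools, Picard and MACS2. Ensembl identifiers were given GENCODE M21 symbols, which matched 51948 genes. The 92 ERCC rows and 2 other controls (0 reads) stayed out of library sizes and tests.

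For gene reads edgeR 4.0.16 (R 4.3.3) was used: filterByExpr, TMM, 1 robust quasi-likelihood fit of 8 group means (8 residual degrees of freedom) over 31057 genes, 10 contrasts, and Benjamini-Hochberg adjustment at 0.05. Intronic repeat reads (17204 genes) used the same fit with the library sizes of the gene table. Ratios (at least 10 reads, pseudocount 0.5 reads) were fitted with limma 3.58.1. Code was tested on simulated counts. DESeq2 1.42.0 was an alternative, and MAFFT 7.526 aligned coding sequences. Libraries held 32739117 to 54890756 gene reads. A rule named the 4 members, for each the 3 genes of highest correlation, overlapping genes, and up to 3 listed genes a direction per contrast with the smallest p. Members and lists were chosen with earlier results of these data known. The main fit did not pair libraries by replicate number. Alternatives were ERCC scaling, other scalings and filters, DESeq2, a replicate block, and leaving out each library.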

Additional observations from a re-analysis of the deposited data

Results flagged for a closer look

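The deletion effects of KDM4A and KDM4B differed for some of these genes in the test of the difference itself (edgeR, or limma for the 5′ to 3′ ratio), given as the KDM4A minus the KDM4B effect on the log2 scale. In gene reads 2 of 4 members and 15 of the 24 list genes (11 higher, 4 lower) passed, where 31.1% of all genes did, 15.4% higher and 15.6% lower. The KDM4A effect was higher for Kdm4a (0.29, adjusted p = 0.000334) and Kdm4c (0.23, adjusted p = 0.00257), and in intronic repeat reads it was lower for Kdm4c (−0.27, adjusted p = 0.000296), 1 of 4 members where 34.2% of all genes passed and the median was −0.18. The 5′ to 3′ intronic ratio of Kdm4a differed by 0.76 (adjusted p = 0.0289), 1 of 3 members tested where 11.8% of all genes passed.

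Among H3K9 genes the KDM4A effect was higher for the methyltransferase gene Ehmt2 (0.93, adjusted p = 2.01e-11) and the demethylase genes Kdm3a (0.79, adjusted p = 6.26e-16) and Phf2 (0.35, adjusted p = 0.00354), and lower for Suv39h1 (−0.38, adjusted p = 0.0013). All 3 HP1 genes were higher, Cbx3 by 0.73 (adjusted p = 1.68e-09), Cbx1 by 0.26 (adjusted p = 0.00284) and Cbx5 by 0.18 (adjusted p = 0.0084). Among H3K36 genes 3 were higher and 3 lower: Setd2 was higher (0.28, adjusted p = 5.72e-06), and Nsd1 (−0.48, adjusted p = 6.36e-12), Kdm2a (−0.30, adjusted p = 2.77e-05) and Ash1l (−0.27, adjusted p = 6.92e-05) were lower. The other 4 that passed, named after their values were seen, were all higher: the H3K36 genes Kdm2b (0.27, adjusted p = 0.00129) and Nsd2 (0.25, adjusted p = 0.00181) and the H3K9 genes Kdm7a (0.23, adjusted p = 0.0026) and Setdb1 (0.16, adjusted p = 0.0374). These 4 values are smaller than the gap between the ERCC shifts of both deletions (−0.65 and −0.19), so ERCC scaling turns them as well. With ERCC scaling the gene-read values of Kdm4a, Kdm4c, Cbx1, Cbx5, Phf2 and Setd2 turned negative. Without 1 library the value missed the threshold for Cbx5 (4 libraries, adjusted p up to 0.0864), Phf2 (2, up to 0.0948), Kdm4c gene reads (1, 0.0688) and the 5′ to 3′ ratio of Kdm4a (6, up to 0.0943).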

How the results depend on the processing

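The counts that follow cover the 4 members only, and list genes were not counted. Settings other than leaving out a library kept the call, with no called value changing sign, in 195 of 227 values for gene reads, 215 of 240 for intronic reads, 211 of 230 for ratios and 27 of 30 for 5′ to 3′ ratios. Among these, 7, 9, 12 and 0 values that did not pass either way changed sign. Leaving out 1 library kept the call in 603, 609 and 622 of 640 and in 226 of 240, of which 38, 15, 21 and 2 that did not pass changed sign, and no called value did (a lone library is then assumed to vary like the other groups). The cause of these changes was not tested, but by construction ERCC scaling shifts all genes of a contrast alike. Depth limits Kdm4d. With ERCC scaling these gene-read values changed direction or newly passed: for KDM4A minus KDM4B deletion, Cbx1 at −0.21, Cbx5 at −0.28, Kdm4a at −0.18, Kdm4c at −0.23, Phf2 at −0.12 and Setd2 at −0.19, and for KDM4B deletion, Cbx1 at −0.024, Kdm4b at −0.29, Kdm4c at −0.18 and Setd2 at −0.029. For KDM4A deletion, Ehmt2 at −0.12, Kdm4a at −0.17, Kdm4c at −0.42 and Setd2 at −0.22, and for full-length KDM4B, Kdm4a at 0.32 and Kdm4c at 0.58. For KDM4B against the rest, Kdm4a at 0.49, Kdm4b at 0.78, Kdm4c at 0.63 and Kdm4d at 0.70, and for KDM4 against KDM6, Kdm4b at 0.38 and Kdm4c at 0.39. For KDM6B deletion, Kdm4b at −0.37 and Kdm4c at −0.28, and for KDM4A against the rest, Kdm4c at −0.11. For KDM6A deletion, Kdm4c at −0.18. It raised Kdm4b in KDM4B libraries from 1.03-fold to 1.66-fold. In intronic reads it turned these values: for full-length KDM4B, Kdm4a at 0.52, and for KDM4A deletion, Kdm4a at −0.45, Kdm4b at −0.60 and Kdm4d at −0.15. For KDM4A minus KDM4B deletion, Kdm4a at −0.45. Genes called became, in gene reads, 20760 for full-length KDM4B (from 13519), 21262 for KDM4 against KDM6 (from 9329), 25302 for KDM4B against the rest (from 14832) and 13954 for KDM6B deletion (from 6406), and in intronic reads 13340 for full-length KDM4B (from 8051), 13794 for KDM4 against KDM6 (from 7120), 9101 for KDM4A minus KDM4B deletion (from 5885) and 15373 for KDM4B against the rest (from 9070). TMM over intronic sums turned these values: for KDM4 against KDM6, Kdm4a at −0.048 and Kdm4b at −0.0048, and for KDM4B against the rest, Kdm4a at −0.18. For full-length KDM4B, Kdm4b at −0.016. Without centring, ratios were, for full-length KDM4B, Kdm4a at −0.20, and for KDM4A deletion, Kdm4a at 0.28. For KDM4A against the rest, Kdm4a at 0.19, and for KDM4B against the rest, Kdm4b at −0.25. For KDM6B deletion, Kdm4b at 0.30. Uncentred calls were 4 for full-length KDM4A (from 7), 4596 for full-length KDM4B (from 1346), 5039 for KDM4 against KDM6 (from 1331), 1618 for KDM4A minus KDM4B deletion (from 848), 7324 for KDM4B against the rest (from 2485), 1 for KDM6A deletion (from 2) and 5477 for KDM6B deletion (from 527). At least 50 reads left 34 for full-length KDM4A (from 7) and 38 for KDM6A deletion (from 2) ratio calls. At least 1 read left 326 for KDM4B deletion (from 527) and 1 for KDM6A deletion (from 2) ratio calls. No margin to exons left 0 for KDM6A deletion (from 2) ratio calls. Without 1 library, calls ranged in gene reads 2555 to 5066 for full-length KDM4A, 3484 to 5375 for KDM6A deletion and 4078 to 6561 for KDM6B deletion. They ranged in intronic reads 2310 to 3756 for full-length KDM4A and 1995 to 3225 for KDM6A deletion. They ranged in ratios 1 to 8 for full-length KDM4A, 359 to 1324 for full-length KDM4B, 878 to 1134 for KDM4 against KDM6, 2216 to 3385 for KDM4A deletion, 248 to 763 for KDM4A minus KDM4B deletion, 508 to 1410 for KDM4A against the rest, 53 to 465 for KDM4B deletion, 1434 to 2407 for KDM4B against the rest, 0 to 3 for KDM6A deletion and 39 to 528 for KDM6B deletion. Kdm4b gene reads ranged −0.19 to 0.021 for KDM4B deletion and −0.0060 to 0.10 for KDM4B against the rest, each passing once, without the second full-length KDM4B library. Replicate numbers mark no shared culture or day in the labels. Correlations of same-numbered deviations were above 0.1 in 11 of 28 pairs of groups, with a range of −0.0061 to 0.156 and a median of 0.079. Whether same-numbered libraries shared a step was not tested, and the main fit did not pair them. A replicate block called 16057 genes for KDM4A deletion (from 15672), and Kdm4b passed for it (−0.13, adjusted p = 0.0302).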
